A study of Danio rerio with 39 samples.

Results

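Heat shock proteins and chaperonins were represented by 81 of the 21495 non-control probes on the zebrafish arrays. They were chosen by gene name (*hsp*, *dnaj*, *cct* with a number, *tcp1*, *hsc70*, *serpinh1*) or by a probe description that contains heat shock, DnaJ or chaperonin, and no measured value entered the choice. Of these probes, 58 carry a gene or clone name and 23 only a transcript or contig identifier, and 14 gene names have more than 1 probe. They stand for 54 of the 18561 names and identifiers on the array. By class there were 18 probes of CCT subunits, 18 of the HSP40 (DnaJ) family, 12 of HSP90, 9 of HSP70, 6 of the mitochondrial chaperonins HSP60 and HSP10, 5 of HSP47, 3 of HSP110, 2 of small heat shock proteins, and 8 of heat shock factors, cofactors and other genes. The last class holds *hspc049l*, now *wdr91*, which resembles heat shock genes in name only.

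Molecular chaperones keep other proteins from misfolding and aggregating. HSP70 proteins bind unfolded stretches of a client, HSP40 proteins deliver the client and start the ATP cycle, and HSP110 proteins release the nucleotide. HSP90 finishes the folding of kinases and receptors, among them the aryl hydrocarbon receptor that binds dioxin. The ring-shaped CCT complex folds actin and tubulin in the cytosol, HSP60 with its lid HSP10 does so for proteins of the mitochondrial matrix, and HSP47 escorts procollagen. Heat shock factors turn on the inducible members of these families under stress, and the endoplasmic reticulum (ER) has chaperones of its own, which are raised by the unfolded protein response.

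The TCDD embryos were AB\* zebrafish exposed to 1 ng/mL TCDD (dioxin, carried in DMSO) for 1 h between 4 and 5 h post-fertilization, and the vehicle embryos received DMSO alone at the same age. Pools of whole embryos were collected on each of days 1 to 5 in 4 separate experiments, numbered as replicates 1 to 4, which gave 19 TCDD and 20 vehicle arrays. Every group had 4 arrays except TCDD on day 2, which had 3, since its replicate 1 is not among the arrays. Each array compared embryo RNA with RNA of Zf4 cells, a zebrafish fibroblast line, and every level below is a log2 ratio of embryo over Zf4, so that levels of different genes cannot be set against each other. Because each value comes from whole embryos, fewer cells of a type and less RNA per cell cannot be told apart.

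*cyp1a*, the classic target of the receptor, was 19.9-fold to 97.7-fold higher in TCDD than in vehicle embryos over the 5 days. In the Cy5 (embryo) channel 70 of the 81 probes exceeded background on every one of the 39 arrays, and 4 did so on no more than 2 arrays. *hspa8* was saturated on 21 arrays. Among the 8 probes of *hsp90b*, 3 were saturated on 37 to 39 arrays, so their changes are bounded by the scanner's range.

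The comparison of TCDD with vehicle embryos asked which chaperone genes the exposure had changed by each day. The most calls came on day 5. Then 7 probes were higher and 1 was lower in TCDD embryos (limma, adjusted p under 0.05 over all probes). Calls over all probes were also most frequent on day 5, and no member's change was shown to differ between days. Over all probes, 3.64% rose and 2.63% fell on that day, against 7 (8.64%) and 1 (1.23%) of the 81. These calls draw on the spread of all days, and with day 5 fitted alone limma called none of the 81. The 7 that rose belong to 5 classes. These are the ER chaperone *hspa5* with the ER co-chaperone *dnajb11* and a DNAJC1-like transcript, the small heat shock protein *hspb1*, the HSP40 gene Dnajb1, the HSP110 gene *hspa4l* and the chaperonin subunit *cct4*.

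*hspa5* encodes BiP, the HSP70 of the ER. Its level on day 5 was 0.17, -0.01, 0.09 and 0.64 in the TCDD arrays of replicates 1 to 4, against -0.55, -0.26, -0.48 and -0.42 in the vehicle arrays. The groups did not overlap. The difference was 0.65 ± 0.11 on the log2 scale (SE), or 1.57-fold (limma, adjusted p = 0.00033). TCDD was higher in 4 of 4 experiments, which follows from the lack of overlap. Lack of overlap, here and below, only describes probes that were called for their difference. It was not counted over all probes. *dnajb11*, which encodes a soluble J protein that works with BiP, had 1.50, 1.00, 1.34 and 1.42 in TCDD embryos, against 0.71, 0.80, 0.85 and 0.63 in vehicle embryos. These groups did not overlap either, and the fold was 1.48 (adjusted p = 0.0126). The call of *dnajb11* was lost without replicate 3 or 4 (adjusted p = 0.084 and 0.12). The DNAJC1-like transcript (ENSDART00000014116) resembles a human J protein of the ER membrane. Its levels were -1.61, -1.59, -1.68 and -1.76 under TCDD and -1.86, -2.17, -2.46 and -2.48 in vehicle. The groups were again apart, by 0.58 ± 0.18 (adjusted p = 0.048), and by 0.28 with another background correction (normexp, adjusted p = 0.031). This call was lost without replicate 2, 3 or 4 (adjusted p = 0.16, 0.29 and 0.20). It was also lost from the embryo channel alone, without the Zf4 reference (adjusted p = 0.13), and narrowly with an ordinary analysis of variance (adjusted p = 0.0503).

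*hspb1* encodes HSP27, which binds partly unfolded proteins without ATP and protects the actin cytoskeleton. On day 5 it measured 2.07, 1.90, 2.4 and 2.60 in TCDD embryos, against 1.53, 1.50, 1.79 and 1.56 in vehicle embryos, with no overlap. The difference of 0.65 ± 0.12 corresponds to 1.57-fold (adjusted p = 0.00085). *hspa4l* (now *hspa4a*), of the HSP110 family, measured -1.45, -1.40, -1.32 and -0.98 against -2.12, -1.60, -1.87 and -1.92 in vehicle, also without overlap and 1.50-fold apart (adjusted p = 0.0044). Its call was lost without replicate 1 or 4 (adjusted p = 0.065 and 0.11). For *cct4*, the delta subunit of CCT, the levels were -0.28, -0.40, -0.18 and -0.35 under TCDD and -0.55, -0.59, -0.51 and -0.60 in vehicle. The groups were separate although the fold was only 1.20 (adjusted p = 0.0182). This day 5 call was lost without replicate 1, 3 or 4 (adjusted p = 0.072, 0.16 and 0.16). It was also lost from the embryo channel alone (0.24, adjusted p = 0.39).

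Dnajb1 (contig TC269112), the major J protein partner of inducible HSP70, had -1.71, -2.30, -1.96 and -1.0 in TCDD embryos and -2.38, -2.50, -2.39 and -2.19 in vehicle embryos. The TCDD array of replicate 2 lay within the vehicle range, and the difference was 0.62 ± 0.17 (adjusted p = 0.0232). This call was lost without replicate 1, 3 or 4 (adjusted p = 0.14, 0.083 and 0.23). The 1 probe that fell is a DNAJB10-like contig (TC284991), with 0.11, 0.29, -0.15 and 0.08 under TCDD against 0.64, 0.66, 0.33 and 0.73 in vehicle. Its groups did not overlap and the change was -0.51 ± 0.12 (adjusted p = 0.0087). The call was lost without replicate 1 or 4 (adjusted p = 0.061 and 0.11) and from the embryo channel alone (-0.49, adjusted p = 0.44). A second probe, listed in the files under the same contig, differed by 0.11 on day 5 (adjusted p = 0.81), so the fall rests on 1 of the pair.

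**Figure D1:**
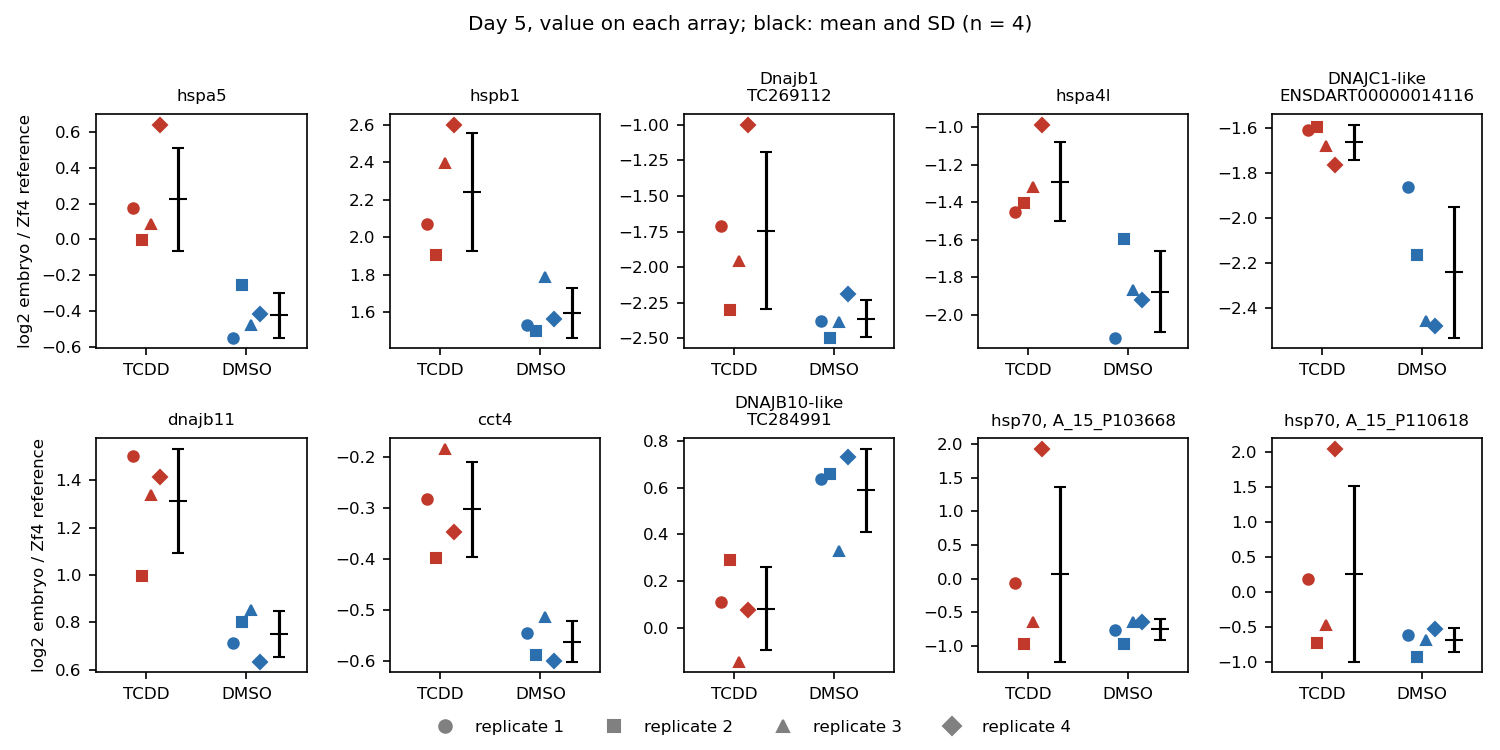
Level of each of the 8 called probes and of both *hsp70* probes on every day 5 array, as log2 ratio of embryo over Zf4 RNA, with TCDD (red) left of DMSO (blue), 1 symbol per replicate, and mean and SD in black (n = 4). TCDD arrays lie above vehicle arrays for *hspa5*, *hspb1*, *hspa4l*, *dnajb11*, *cct4* and the DNAJC1-like transcript and below them for the DNAJB10-like contig, while both *hsp70* probes are highest, near 2, on the TCDD array of replicate 4.

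The heat-inducible *hsp70* had the highest estimate of all members on day 5 but did not pass the test. Its probe A_15_P110618 measured 0.19, -0.73, -0.47 and 2.05 in the TCDD arrays and -0.61, -0.92, -0.68 and -0.52 in the vehicle arrays. The TCDD array of replicate 4 stood far above all others, and that of replicate 2 lay within the vehicle range. The difference was 0.94 ± 0.33 (adjusted p = 0.096). With arrays weighted by quality it passed (1.09, adjusted p = 0.025), and without replicate 4 it was 0.40 (adjusted p = 0.51). The other and slightly brighter probe, A_15_P103668, differed by 0.82 (adjusted p = 0.20). The replicate 4 TCDD array was also the highest of its group for 4 of the 7 probes that rose, *hspa5*, *hspb1*, *hspa4l* and Dnajb1. Without replicate 4, *hspa5* was the 1 member that still passed the threshold on day 5 (0.51, adjusted p = 0.0116), and *hspb1* differed by 0.52 (adjusted p = 0.062). With replicate 1 left out 4 of the 81 were called, with replicate 3 left out 4, and with replicate 2 left out 7. Within each of the scan-date batches that held both treatments on day 5, *hspa5* differed by 0.51 and 0.78 and *hspb1* by 0.38 and 0.94. The second of these batches held 1 vehicle array. All 8 called probes kept their direction, but where the groups do not overlap no split of these arrays could have changed it.

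*hspa5*, *dnajb11* and *hspa4l* fell in vehicle embryos between days 4 and 5 (by 0.79, 0.81 and 0.57 on the log2 scale, adjusted p = 3.2e-05, 0.00045 and 0.0070), a comparison that shares the vehicle arrays of day 5 with the one above. On days 4 and 5 *hspa5* averaged 0.43 ± 0.18 and 0.22 ± 0.29 in TCDD embryos, against 0.37 ± 0.09 and -0.43 ± 0.13 in vehicle embryos (SD, n = 4 each). *dnajb11* averaged 1.71 ± 0.31 and 1.31 ± 0.22 under TCDD, against 1.56 ± 0.18 and 0.75 ± 0.10 in vehicle. *hspa4l* averaged -1.11 ± 0.20 and -1.29 ± 0.21 under TCDD, against -1.31 ± 0.06 and -1.88 ± 0.22 in vehicle. *hspb1* averaged 1.72 ± 0.12 and 2.24 ± 0.32 under TCDD, against 1.57 ± 0.04 and 1.59 ± 0.13 in vehicle. The change between days 4 and 5 was not tested in TCDD embryos. Which group the differences on day 5 come from was not tested either.

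**Figure D2:**
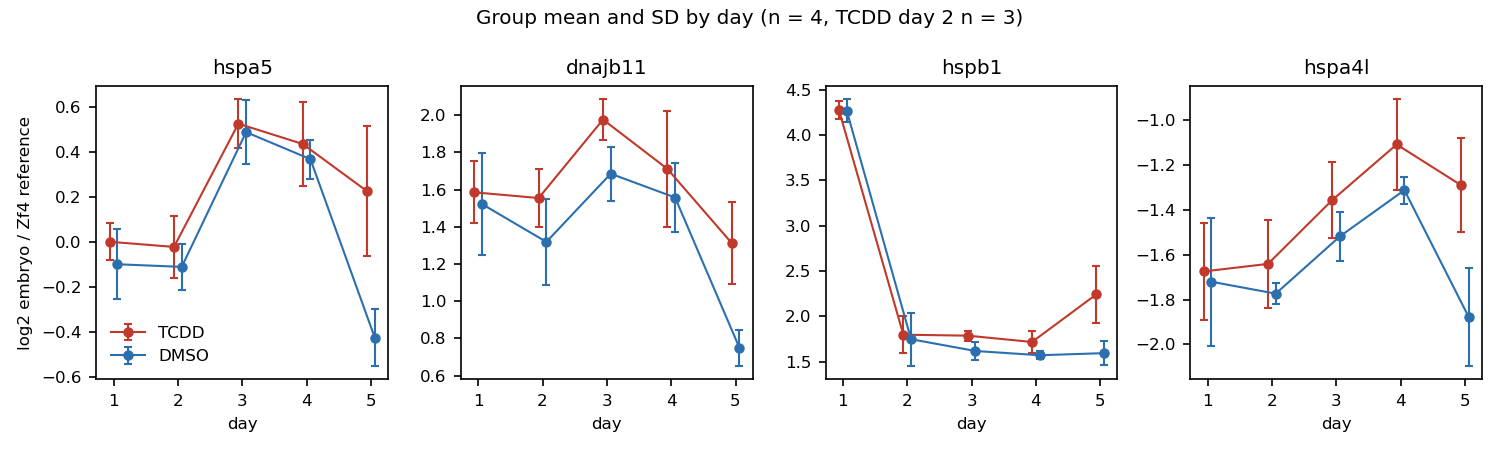
Group mean and SD by day (n = 4, TCDD day 2 n = 3, *hspa5* TCDD day 1 n = 3 because an outlier spot was left out) for *hspa5*, *dnajb11*, *hspb1* and *hspa4l*, as log2 ratio of embryo over Zf4 RNA, TCDD red and DMSO blue. The TCDD and DMSO means are farthest apart on day 5, where *hspa5* differs by 0.65 and *hspb1* by 0.65.

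On day 3, 3 probes were higher in TCDD embryos and 1 was lower, against 1.07% of all probes that rose and 1.68% that fell. The brightest of 3 probes for *cct2*, the beta subunit of CCT, had 0.95, 0.97, 0.96 and 0.85 in TCDD embryos and 0.66, 0.73, 0.45 and 0.68 in vehicle embryos, a difference of 0.30 ± 0.06 (adjusted p = 0.0022). Its other probes were not called, among them A_15_P104605 with 0.39 (adjusted p = 0.054). The probe of *cct6a*, the zeta subunit, had 0.03, 0.03, -0.10 and -0.20 against -0.38, -0.36, -0.46 and -0.44 in vehicle (0.35 ± 0.10, adjusted p = 0.047). One of 3 probes of *hspd1*, which encodes HSP60, differed by 0.40 ± 0.11 (adjusted p = 0.030), and the other two by -0.32 and 0.08 without a call. For the 4 called probes the groups did not overlap. This adds no support of its own, since the probes were called for their difference. The fall was again that of the DNAJB10-like contig, by 0.47 ± 0.12 (adjusted p = 0.029). None of the 4 calls held with every replicate left out in turn. *cct6a* was lost without any 1 of them (adjusted p 0.073 to 0.26), *hspd1* without replicate 2, 3 or 4 (0.24, 0.12 and 0.19), the DNAJB10-like contig without replicate 1, 2 or 3 (0.12, 0.28 and 0.10) and *cct2* without replicate 1 or 3 (up to 0.092). From the embryo channel alone, without the Zf4 reference, none of the 4 was called. There *cct2* differed by 0.11 (adjusted p = 0.89), *cct6a* by 0.14 (0.83), *hspd1* by 0.47 (0.20) and the DNAJB10-like contig by -0.95 (0.12).

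No member passed the adjusted threshold of limma on days 1, 2 or 4, when 0.0140%, 0.703% and 0.893% of all probes did. At an unadjusted p under 0.05 there were 3, 7 and 7 members on these days, beside 3.00%, 8.51% and 8.67% of all probes. At the unadjusted p under 0.01 that the study used, 1, 4, 7, 1 and 11 of the 81 passed on days 1 to 5, beside 0.717%, 3.30%, 6.52%, 3.38% and 9.24% of all probes. With the experiment as a replicate block, 2 members passed the adjusted threshold on day 2, 7 on day 3 and 1 on day 4, beside 2.03%, 4.38% and 1.58% of all probes in the same fit. The DNAJC1-like transcript was among them on each of these days, with 0.84 ± 0.14 on day 2, 0.60 ± 0.13 on day 3 and 0.67 ± 0.13 on day 4, and *cct6a* was the other one on day 2.

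**Figure D3:**
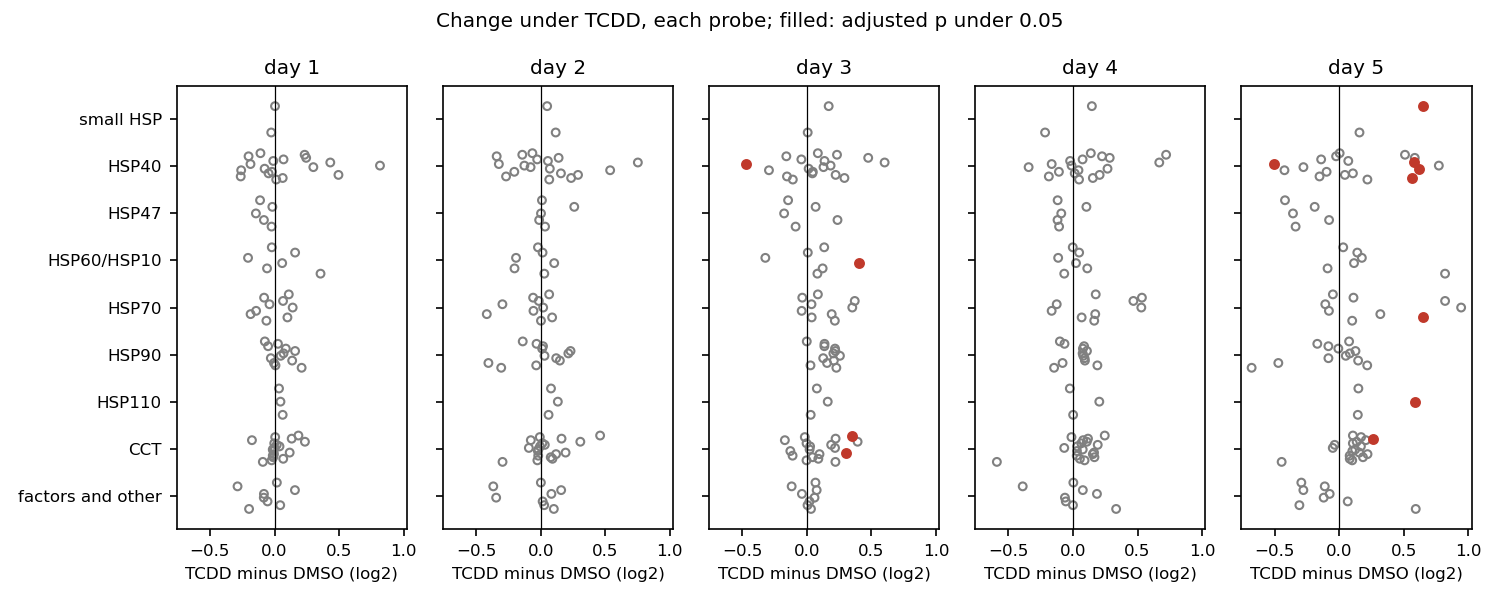
Difference of TCDD minus DMSO (log2) for each of the 81 probes, 1 panel per day, by class. Filled red points passed an adjusted p under 0.05: 4 on day 3 and 8 on day 5, and none on days 1, 2 and 4.

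Averaged over the 5 days, 10 members were higher and 3 lower in TCDD embryos, against 7.03% and 5.16% of all probes. The DNAJC1-like transcript had the largest average change of the members, 0.61 ± 0.08, with daily differences of 0.43, 0.75, 0.60, 0.67 and 0.58 on days 1 to 5. With normexp the average was 0.27 (adjusted p = 2.4e-06). The transcript was higher under TCDD in 19 of 19 pairs, each made of TCDD and vehicle arrays of the same day and experiment. These pairs come from 4 experiments followed over days, so they are not independent. How many of all probes reach 19 of 19 was not counted. On day 3 the transcript measured -1.42, -1.57, -1.85 and -1.97 in TCDD embryos and -2.17, -2.4, -2.22 and -2.42 in vehicle embryos, with no overlap. CCT subunits gave 4 of the 10 rises: the brighter probes of *cct2* (0.19 ± 0.03 and 0.24 ± 0.05), *cct4* (0.18 ± 0.03) and *cct6a* (0.27 ± 0.05). The *cct2* probe A_15_P112801 was also higher in 19 of 19 pairs. From the embryo channel alone, without the Zf4 reference, its average was 0.14 (adjusted p = 0.57) and that of *cct6a* 0.27 (adjusted p = 0.087). The average calls of *cct4* and of the other *cct2* probe were kept there. The median over all 18 CCT probes was 0.04, against 0.01 over all probes. *cct3*, the gamma subunit, differed by no more than 0.17 on any day (adjusted p 0.13 and 0.14 on day 5 for its probes).

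The remaining average rises were *dnajb11* (0.26), *hspa4l* (0.23), *hspb1* (0.20), *hspa5* (0.19) and the dimmer probe of *dnaja3b* (0.35), a mitochondrial J protein. That probe was above background on 20 arrays, and its brighter partner A_15_P112041 differed by -0.10 on day 5 where it differed by 0.59. Its average was 0.08 with normexp (adjusted p = 0.12), and the call was lost without replicate 1, 2 or 4. Leaving out a replicate also ended the average call of *hspa5* (3 of 4 times) and of *dnajb11*, *hspa4l* and *hspb1* (2 of 4 times each). The average of *hspa5* was also not called from the embryo channel alone (0.08, adjusted p = 0.81). Among the average falls, the largest was the DNAJB10-like contig at -0.33 ± 0.06. It was not called from the embryo channel alone (-0.29, adjusted p = 0.20). The second probe listed under that contig averaged 0.05 (adjusted p = 0.76). *dnaja2l* (now *dnaja2b*), a cytosolic J protein, had -0.20 ± 0.04 (adjusted p = 0.00014) and was lower under TCDD in 19 of 19 pairs, with daily differences of -0.15 to -0.27 that did not pass the test on any single day. On day 1 it measured -0.94, -1.25, -1.11 and -0.88 in TCDD embryos against -0.70, -0.99, -0.67 and -0.79 in vehicle, overlapping by 1 vehicle array, and on day 4 -0.63, -0.81, -0.58 and -0.60 against -0.43, -0.43, -0.48 and -0.52, without overlap. *hsf1*, the master regulator of the heat shock response, was the third fall, by 0.25 ± 0.09 (adjusted p = 0.048). Its call was lost without replicate 1, 2 or 4 (adjusted p 0.16 to 0.22) and under 5 of 10 other settings, and with normexp the change was -0.08.

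Whether the TCDD change itself differed between days was tested as an interaction. No member passed the adjusted threshold in limma's test over all days (0.0931% of all probes did), and 2, *hspa5* and *hspb1*, had an unadjusted p under 0.05, beside 5.89% of all probes. For day 5 minus day 1, 0 members were called (0.521% of all probes) and 9 had an unadjusted p under 0.05 (9.45% of all probes). The largest of these by p was *hspb1*, whose TCDD change was 0.65 ± 0.17 greater on day 5 than on day 1 (adjusted p = 0.092). With arrays centred on their median it passed (0.69, adjusted p = 0.043), the 1 alternative in which a member did. As reported, the calls on day 5 are not shown to differ from those of other days.

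The HSP90 class, which holds the cytosolic chaperones of the receptor, had no probe called by limma on day 5 (2 of 12 at an unadjusted p under 0.05). Besides *hsp90a* and *hsp90b*, the 12 include a TRAP1-like contig (TC297091). With the scan batch as a block, *hsp90b* probe A_15_P118357 passed (-0.57, adjusted p = 0.046), against -0.47 (adjusted p = 0.26) as reported. For the average over days, *hsp90b* probe A_15_P107896 passed with the replicate block (0.18, adjusted p = 0.048). The 12 probes had a median of 0.02 on that day, with a range of -0.68 to 0.22, beside a median of -0.0015 over all probes. The lowest was *hsp90b* probe A_15_P119924, with 0.58, 0.87, 0.89 and 0.50 in TCDD embryos and 1.59, 1.31, 1.17 and 1.48 in vehicle embryos. Its groups did not overlap, but the adjusted p was 0.14, and 0.047 with array weights. The 3 probes of *hsp90a* differed by -0.17 to 0.08. All 5 HSP47 probes had estimates below 0 on day 5 (median -0.34), and none was called (3 at an unadjusted p under 0.05, adjusted p 0.19 or more). Of these 5, 4 are probes of *hsp47* itself. The share of all probes at an unadjusted p under 0.05 on day 5 was not taken, so these counts set neither class apart.

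Genes that act together with these chaperones were read from lists. Of 31 probes of ER unfolded protein response genes (19 genes, without *hspa5*), 12 were higher and none lower under TCDD on day 5. Over all probes 3.64% were higher, and the median of the 31 was 0.27. In vehicle embryos, 22 of the 31 fell and 3 rose between days 1 and 5 (median -0.64), beside 25.5% and 21.3% of all probes. For the list with *hspa5*, the median array mean was 0.28 on day 4 and 0.11 on day 5 in TCDD embryos. In vehicle embryos it was 0.19 and -0.16. A rise below is a level above vehicle on the same day. *hsp90b1* (listed as *tra1*), the HSP90 of the ER, rose with both probes. The first measured 0.88, 0.45, 0.98 and 1.30 in TCDD embryos against 0.01, 0.33, 0.34 and 0.16 in vehicle, with no overlap (0.69 ± 0.13, adjusted p = 0.00085), and the second rose by 0.77. The ER disulfide enzyme *ero1a* rose by 0.98. The disulfide isomerase *pdia4* rose by 0.73 with 1 probe, and its other probe differed by 0.36 (adjusted p = 0.43). Its relative *pdia6* rose by up to 0.70, *creld2* by 0.81 and the calreticulins *calr3b* and *calr3a* by 0.72 and 0.34. *sdf2l1* rose by up to 0.41 and *edem1*, which marks misfolded glycoproteins for disposal, by 0.38. Among the probes not called, those of *xbp1* differed by -0.11 to 0.10, *atf4a* by -0.17 and *pdia2* by -1.27 (adjusted p = 0.33). No probe of *ssr1*, *ssr4* or *sec61b* was called either. For *creld2* the arrays had -0.50, -0.71, -0.44 and 0.00 under TCDD and -1.33, -1.10, -0.95 and -1.52 in vehicle, again apart. On day 3 limma called 0 of the 31 (3 at an unadjusted p under 0.05). Without replicate 4, 2 of the 31 rose on day 5, both of them *hsp90b1*, with a median of 0.22 over the list.

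Of 28 probes for 21 co-chaperones and heat shock pathway genes, 2 rose and none fell on day 5, beside 3.64% and 2.63% of all probes. *fkbp5*, an immunophilin that binds HSP90 in steroid receptor complexes, measured -0.07, -1.60, -0.29 and -0.21 in TCDD embryos and -2.67, -2.60, -2.57 and -3.31 in vehicle embryos. The groups were far apart, by 2.25 ± 0.30 (adjusted p = 2.3e-05), and by 1.96 without replicate 4 (adjusted p = 0.0071). On day 3 it differed by -0.003 (adjusted p = 1.0), with either sign under the alternatives. *hspbp1*, a nucleotide exchange factor of HSP70, rose by 0.51 on day 5 (adjusted p = 0.0200) and by 0.35 without replicate 4 (adjusted p = 0.36). *bag2*, another HSP70 cofactor, fell on day 3, to -0.69, -0.70, -0.76 and -0.64 in TCDD embryos, against 0.02, -0.18, -0.10 and -0.20 in vehicle embryos, a change of -0.59 ± 0.11 (adjusted p = 0.0013). On day 5 it differed by -0.30 (adjusted p = 0.10). Its average over the days was -0.41 ± 0.05 (adjusted p = 3.2e-07), so the fall was not confined to day 3.

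Markers of tissues that chaperone genes could follow were read in the same arrays on day 5. limma called 0 of 30 fast muscle probes (median 0.03), 12 lens probes (-0.13), 4 blood probes (0.14) and 3 cartilage and notochord probes (-0.17) between TCDD and vehicle embryos, with 1, 0, 0 and 0 of them at an unadjusted p under 0.05. Of 23 probes of proliferating cells, 4 fell and none rose (median -0.14), beside 2.63% and 3.64% of all probes. Of the 23, 9 had an unadjusted p under 0.05. The mean level of this list ranged over -1.46 to -0.91 in TCDD arrays and over -1.08 to -0.89 in vehicle arrays. The part of cell proliferation in the chaperone changes was not tested.

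More members changed between days than with TCDD. The change over days was taken within vehicle embryos, between day 5 and day 1. There 11 of the 81 probes were higher and 35 lower on day 5, against 21.3% and 25.5% of all probes, so that 43.2% of the member probes fell. Several of these falls are probes of the same gene, such as 4 of *hsp47* and 3 each of *tcp1*, *hspd1* and *hsp90a*. The shares are by probe, and no count by gene was made. The median over the members was -0.24, beside -0.04 over all probes. The most calls fell between days 1 and 2. On day 2 against day 1, 5 rose and 28 fell (13.5% and 15.5% of all probes). On day 3 against day 2, 8 rose and 4 fell (6.27% and 6.50%), on day 4 against day 3, 5 rose and 4 fell (5.89% and 6.96%), and on day 5 against day 4, 1 rose and 6 fell (1.93% and 3.01%).

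The small heat shock proteins went opposite ways between days 1 and 2. *hspb1* measured 1.53, 1.50, 1.79 and 1.56 in vehicle embryos on day 5, against 4.33, 4.42, 4.16 and 4.18 on day 1. The groups were far apart. It was 6.39-fold lower on day 5 (adjusted p = 3.5e-18), and the step to day 2 alone was -2.52. The HspB2 contig (TC296711), whose mammalian counterpart is a small heat shock protein of muscle, measured 3.29, 2.68, 3.95 and 3.59 on day 5, against 0.65, 0.23, 0.22 and 1.45 on day 1. It was 6.69-fold higher on day 5 (adjusted p = 4.6e-08) and 3.14-fold with normexp, and its step to day 2 was 2.66. These groups did not overlap either.

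Among HSP40 genes the largest rise was that of a contig similar to human DNAJB1 (TC282253), with 3.81, 4.23, 4.04 and 3.55 on day 5 against -0.67, -0.35, -0.42 and -0.23 on day 1 in vehicle. It was 20.1-fold higher on day 5 (adjusted p = 4.6e-10), but 4.55-fold with normexp (adjusted p = 1.0e-12), and the probe was above background on 37 of the 39 arrays. The rise by day 2 was 1.54 (adjusted p = 0.0068) and that from there to day 3 was 1.57 (adjusted p = 0.014). The first step was lost with normexp and without replicate 3, and the second without replicate 2, 3 or 4 (adjusted p up to 0.087 and 0.081 with a replicate left out). The zebrafish Dnajb1 contig TC269112 fell by 1.06 over the same days (adjusted p = 3.5e-06). In all, 5 of 18 HSP40 probes rose and 5 fell, with a class median of -0.01. This split is near that of all probes, of which 21.3% rose and 25.5% fell.

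Of 18 CCT probes, 11 fell and none rose between day 1 and day 5 (median -0.44), beside 25.5% and 21.3% of all probes. *cct3* fell the most, 1.88-fold and 1.85-fold for its probes (adjusted p = 2.3e-13 and 1.8e-13). On day 5 the *cct3* probe A_15_P110023 had -1.09, -1.19, -1.13 and -1.18 in vehicle embryos, against -0.27, -0.35, -0.11 and -0.31 on day 1, well apart. *cct7* fell by 0.75 and 0.77, *cct5* by 0.42 and *tcp1*, the alpha subunit, by 0.61 to 0.75 over 3 probes. Among probes with a gene name, 2 of the 3 of *cct2* and both of *cct8* did not pass the threshold, with changes of -0.32 to 0.08. All 5 HSP47 probes fell (median -1.04), among them the hsp47-like transcript ENSDART00000004042 by 1.08, or by 0.33 with normexp (adjusted p = 0.0068). For *hsp47* probe A_15_P103774 the vehicle means on days 1 to 5 were -0.52, -1.19, -0.82, -1.11 and -1.56, and of the single steps the one to day 2 passed the test (-0.67, adjusted p = 0.0029). All 3 probes named *hspd1* fell, the call of A_15_P118622 (adjusted p = 0.041) being lost under 5 of the alternatives, and *hspe1*, which encodes the lid HSP10, fell by 0.60. *hspd1* probe A_15_P107421 had means of -0.06, -1.01, -0.55, -0.33 and -0.95 on days 1 to 5, with steps of -0.95 to day 2, 0.47 to day 3 and -0.63 to day 5 that each passed the test.

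**Figure D4:**
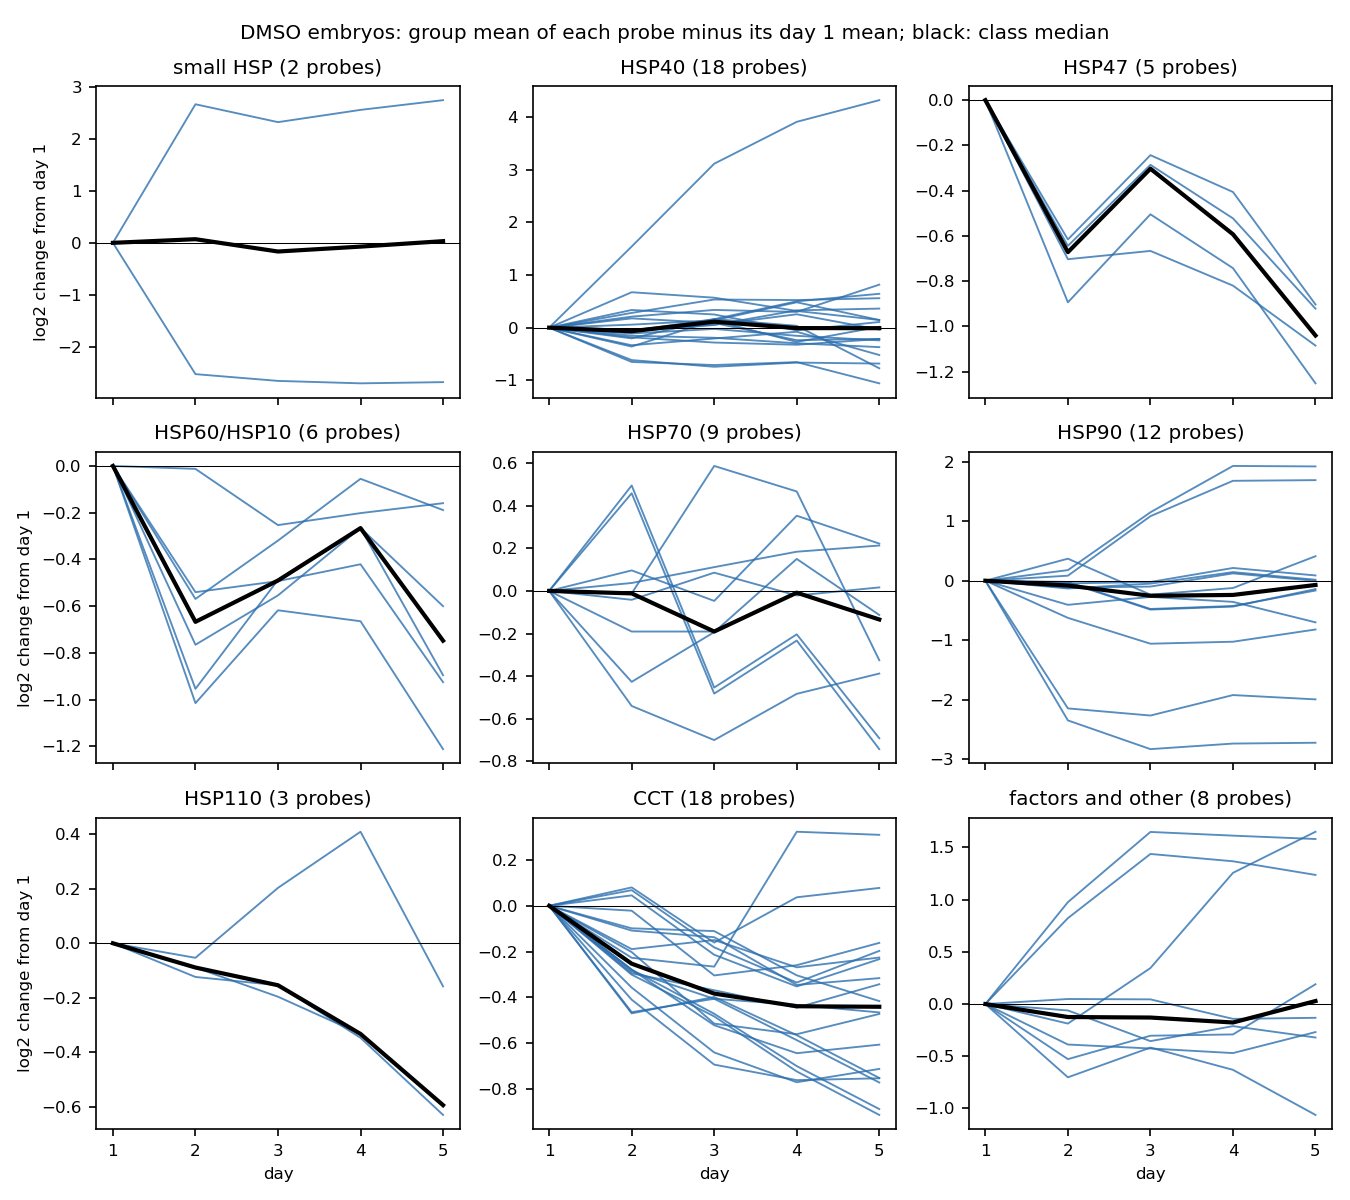
Group mean of each probe in DMSO embryos minus its own mean on day 1 (log2), by day and class, with the class median in black. CCT, HSP47 and HSP60/HSP10 probes lie mostly below 0 (medians -0.44, -1.04 and -0.75 on day 5), while single probes of the small heat shock, HSP40 and HSP90 classes rise by 1.69 to 4.33.

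Clients and cell markers moved beside these classes in vehicle embryos between days 1 and 5. Over the same days 21.3% of all probes rose and 25.5% fell. Of 22 tubulin probes, 13 fell (median -0.31), and of 15 actin probes, 8 rose and 4 fell (median 0.56). Fibrillar collagens, the clients of HSP47, went the other way from it, with 4 of 5 probes higher on day 5 (median 1.98). Proliferation markers fell with 22 of 23 probes (median -1.74), and their mean level was -1.08 to -0.89 on the day 5 arrays against 0.85 to 0.93 on the day 1 arrays. Fast muscle markers rose with 22 of 30 probes, at a mean level of 5.06 to 5.17 on day 5 against 3.26 to 3.85 on day 1, and lens markers rose with 10 of 12, at 4.42 to 4.95 against 0.90 to 1.91. How far these tissues account for the chaperone changes was not tested.

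*hsp90a* (now *hsp90aa1.1*), the isoform known for its role in developing muscle, had the largest fall of all members. Its probe A_15_P102590 measured -1.16, -0.97, -1.05 and -1.11 on day 5 in vehicle, against 1.40, 1.70, 1.87 and 1.64 on day 1, a 6.62-fold fall (adjusted p = 3.1e-15), of which the step to day 2 was -2.35. The other 2 probes fell by 2.00 and 0.82, the smaller fall being that of the brightest probe, A_15_P110190, so the size depends on the probe. *hsp90b* (now *hsp90ab1*), the constitutive isoform, had 8 probes. Of these, 2 rose, A_15_P118357 by 1.92 ± 0.23 and A_15_P118422 by 1.69 ± 0.16, both between days 2 and 4, and the files place both on contig TC268852. The other 6 changed by -0.16 to 0.41 with no call, and the 3 saturated ones are among them. The files do not say whether that contig is a separate gene.

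**Figure D5:**
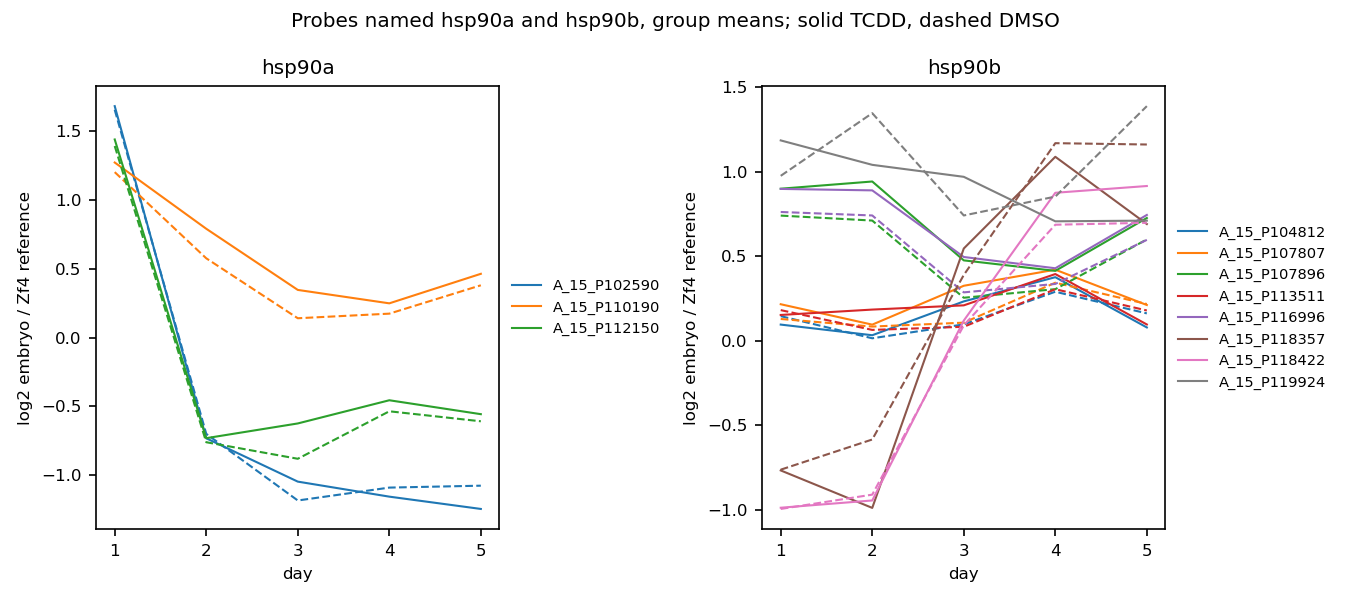
Group means of the 3 *hsp90a* and 8 *hsp90b* probes by day, as log2 ratio of embryo over Zf4 RNA, solid for TCDD and dashed for DMSO, 1 colour per probe. The *hsp90a* probes drop between days 1 and 2, and 2 of the *hsp90b* probes are above 0.5 on day 5, against below -0.5 on day 1.

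*hsf2*, a heat shock factor with roles in development, measured 1.26, 0.82, 1.08 and 1.11 on day 5 in vehicle, against -0.78, -0.75, -0.29 and -0.51 on day 1. The groups did not overlap and the level was 3.14-fold higher on day 5 by this bright probe (adjusted p = 2.1e-12), and its other probe was above background on no array. Both probes of an *hsbp1*-like transcript (BC091658), similar to a human inhibitor of heat shock factor trimers, rose 2.99-fold and 2.36-fold. Under TCDD on day 5 they differed by -0.31 and -0.29 (adjusted p = 0.095 and 0.090), and with the replicate block the second passed the test (adjusted p = 0.039). *ahsa1l*, an activator of the HSP90 ATPase, was above background on 11 of the 39 arrays, so its size of change was not measured well. It was called at -1.06 as reported and not called with normexp (-0.12, adjusted p = 0.11). Both probes of *hspa4* (now *hspa4b*), the other HSP110 gene, fell by 0.59 and 0.63 (adjusted p = 1.6e-07 and 4.4e-08), and an hsp70-related contig (TC269154) fell by 0.39 (adjusted p = 0.0102), or by 0.19 with normexp. The constitutive *hspa8* (0.21, adjusted p = 0.35) and mitochondrial *hspa9b* (-0.13 and -0.11) were not called between day 5 and day 1. The *hspa9b* probe with -0.11, A_15_P111664, had outlier spots on 13 of the 39 arrays, so few values enter its change. *hsp70* was not called either (-0.69 and -0.74, adjusted p = 0.11 and 0.070), though without replicate 4 both of its probes were (adjusted p = 0.043 and 0.012). In TCDD embryos, 14 members rose and 30 fell between day 1 and day 5, against 20.5% and 24.1% of all probes.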

How the data were processed

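The authors deposited Agilent Feature Extraction 8.1.1 output for each array, with the intensity of every spot in both channels (embryo RNA in Cy5, Zf4 reference RNA in Cy3), and a series table with the same log10 ratios. The deposited log10 ratio is that of the software's processed signals, with no step between arrays. The ratios were put on the log2 scale, and outlier spots, by the software's own marks, were left out (21 values of the members). limma 3.58.1 in R 4.3.3 fitted 1 mean for each of 10 groups over 39 arrays. Contrasts were TCDD minus DMSO on each day and averaged, later minus earlier day in DMSO embryos, and their interaction, with p-values adjusted by the Benjamini-Hochberg method over all probes. The p-values rest on 4 separate experiments and on 1 residual spread shared by all 39 arrays. In the fit as reported the arrays are treated as independent, with no block for the experiment. Members, gene lists and tests were chosen with earlier results of these data known, and the ER list and co-chaperone genes under the alternatives were added after seeing the data.

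Per array, 16329 to 18624 probes exceeded background in Cy5, and the number of arrays limits the precision. Same-numbered arrays of TCDD and DMSO embryos come from 1 experiment, which the design text states, and their deviations from the group means correlated with a median r of 0.23 over 19 pairs, against -0.07 over 57 pairs of different numbers. Scan dates gave 3 batches of 4, 24 and 11 arrays. Alternatives were other background corrections and scalings (normexp with offset 50, quantile, median centring, the embryo channel over its percentile 75), blocks, weights, each day alone, an ordinary analysis of variance and each experiment left out.

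Genes named in the text were those called for TCDD, the largest rise and fall over days in each class, the best-known members, and *dnaja2l*, *cct3* and *cct4*. The *hsbp1*-like transcript, *hsp90b* probe A_15_P119924 and the genes of the partner lists were named after their values were seen. By rule a gene stood for its brightest probe, except *hsp90b*, where saturated probes were passed over. The array values or daily means printed for *hsp90a*, *hsp70* and *hsp47* did not follow this rule. They come from probes that are not the brightest of their gene, and for *hsp90a* and *hsp70* the printed probe had the larger change. Genes of the lists were matched by name in the files or by current symbol in RefSeq tables, which gave a symbol for 56 of the 81 members. The limma step was tested on simulated data. Computations used Python 3.11.15, numpy 2.4.6 and pandas 2.3.3.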

Additional observations from a re-analysis of the deposited data

Results flagged for a closer look

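In groups of 4 arrays, 7 of 139 groups (16 probes of the named genes) had 1 array far from the other three by Dixon's test, and chance gives about 1 in 20 groups. The *hsp70* probe A_15_P110618 measured 0.5277 in the day 3 TCDD array of replicate 1, against -0.3541 to -0.2066 in the others. The other *hsp70* probe, A_15_P103668, measured 0.1498 in the day 4 vehicle array of replicate 1, against -0.4142 to -0.3896. *hspb1* measured 1.3111 in the day 2 vehicle array of replicate 3, against 1.8623 to 1.9405. For *hspd1* probe A_15_P107421 the day 1 vehicle array of replicate 1 had -0.3512, against 0.0316 to 0.0431 in the others. *cct2* probe A_15_P112801, called on day 3, had 0.8545 in the TCDD array of replicate 4 against 0.9518 to 0.965. *dnaja2l* had -0.955 in the day 5 TCDD array of replicate 2 against -0.7387 to -0.7328, and *dnaja3b* probe A_15_P112041 had -0.3722 in the day 5 vehicle array of replicate 1 against -0.6504 to -0.609.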

How the results depend on the processing

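No called member changed direction under the alternatives run on it, while *fkbp5* on day 3, not called, ranged over -0.21 to 0.24. The co-chaperone list (apart from *fkbp5*, *hspbp1* and *bag2*), the client lists and the tissue lists were not run under the alternatives. Of the 46 members called between days 5 and 1 in vehicle embryos, 9 lost the call under at least 1 alternative, and 22 moved by over 1.5 times, 13 of them with normexp and loess. The causes of these and the changes below were not tested. The numbers of members called on days 1 to 4 (0, 0, 4 and 0 as reported) became 2, 7 and 1 on days 2, 3 and 4 with dim probes left out, with the replicate block and with the scan batch block. With array weights 4 were called on day 2, and with normexp and loess 1 on day 2 and 2 on day 3. At an unadjusted p under 0.01 there were 1, 4, 7 and 1 on days 1 to 4, and 2 in the interaction over all days. With the embryo channel alone there were 0 on day 3, 5 on day 5 (8 as reported) and 7 for the average over days (13 as reported). With each day fitted alone there were 0 on days 3 and 5. Leaving out 1 experiment at a time gave 0 to 1 on day 2, 0 to 2 on day 3, 1 to 7 on day 5 and 8 to 13 for the average, and on day 5 the lowest count was without replicate 4. Between days 5 and 1 in vehicle embryos, 10 to 11 rises and 31 to 36 falls were called. Same-numbered arrays come from 1 experiment, and with this pairing as a replicate block 9 were called on day 5 and 18 for the average. This block raised the calls over all probes as well. On day 3 it gave 4.38% of them, against 1.07% that rose and 1.68% that fell as reported. The counts of members in this paragraph stand without such shares, so they do not set the members apart from other probes. Quantile normalization between arrays leaves log ratios as they are, so it changed nothing. The ER list, an alternative chosen after seeing the data, had 12 probes called as reported, 7 with the embryo channel alone, 0 with day 5 alone and 2 to 12 with an experiment left out. Saturated probes of *hsp90b* and *hspa8*, and the 11 probes not above background on every array, limit what their changes can show.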
